A study of Mus musculus with 33 samples.

Results

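The CCAAT/enhancer-binding proteins (C/EBPs) were followed in mouse liver over 14 d after removal of 70% of the liver, through 4 genes: Cebpa (C/EBPα), Cebpb (C/EBPβ), Cebpd (C/EBPδ) and Cebpg (C/EBPγ). A probe set belonged to a member where the platform annotation gave it exactly 1 symbol and that symbol was the member's. Such probe sets numbered 8 for the 4 genes, and each gene was read from its probe set with the highest mean. The 4 genes are among 18193 genes with a single-symbol probe set, of which 13642 reached a log2 value of 5 on at least 3 arrays and were tested. All 4 members passed that filter.

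The study measured total liver RNA on Affymetrix mouse genome arrays at 11 times after partial hepatectomy: at 0 d, then at 0.25, 0.5, 0.75 and 1 d, then at 1.5, 2, 3 and 4 d, and last at 7 and 14 d. Each time had 3 arrays, called biological replicates in the labels, which makes 33 arrays. Every group had the same operation, no sham-operated group is labelled, and strain, sex and age are not given in the sources used here, so operation and time after it cannot be told apart. Differences are given against the 0 d livers. The samples of 0.25, 0.5, 0.75 and 1.5 d are numbered as a separate block of the series, apart from 0 d and the other times. The labels name no batch and do not say whether the blocks were handled together. At those times a difference between blocks cannot be told apart from a difference from 0 d. Those 4 times are also not whole days after the operation. A possible difference in time of day from 0 d therefore cannot be told apart from time after the operation. The labels do not say that the replicates were separate animals, and the p-values then measure only the spread between these samples.

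C/EBPs are basic leucine zipper (bZIP) proteins that bind DNA as dimers with each other or with related proteins. In the resting liver C/EBPα drives genes of differentiated hepatocytes and restrains cell division, whereas C/EBPβ and C/EBPδ are induced by cytokines, among them interleukin-6, and switch on acute-phase genes. C/EBPγ lacks a transactivation domain of its own and acts as a dimer partner, among others of ATF4.

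The start regions of the members differ in make-up, and the 250 bases before the annotated start are shown as a description. Early after the operation Cebpa and Cebpb moved in opposite directions, while the Cebpg probe set used moved little. Whether the sequences bear on these changes was not tested. RefSeq's promoter table (build GRCm38.p6) had an entry for 3 of the 4 members, and Cebpd was not matched. Capitals mark matches, on either strand, to 7 searched motifs. The C/EBP core was searched as TTGCNNAA and the cAMP response element as TGACGTCA. The shorter form of that element, which also lies within the full one, was searched as TGACG. The STAT site was searched as TTCNNNGAA. The E-box was searched as CACGTG, the CCAAT box by the letters of its name, and the TATA box as TATAAA.
Cebpa, chr7:35119043-35119292, plus strand: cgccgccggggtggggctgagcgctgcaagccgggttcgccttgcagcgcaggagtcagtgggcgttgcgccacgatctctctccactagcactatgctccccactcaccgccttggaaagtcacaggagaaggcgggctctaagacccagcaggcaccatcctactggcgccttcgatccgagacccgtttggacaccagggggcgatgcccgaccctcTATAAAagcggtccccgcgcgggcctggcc
Cebpb, chr2:167688665-167688914, plus strand: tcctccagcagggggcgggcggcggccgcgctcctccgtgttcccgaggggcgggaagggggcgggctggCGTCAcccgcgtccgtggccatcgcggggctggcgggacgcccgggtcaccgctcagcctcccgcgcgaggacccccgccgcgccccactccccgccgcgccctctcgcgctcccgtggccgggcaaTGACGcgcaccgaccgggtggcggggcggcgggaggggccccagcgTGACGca
Cebpg, chr7:35056567-35056816, minus strand: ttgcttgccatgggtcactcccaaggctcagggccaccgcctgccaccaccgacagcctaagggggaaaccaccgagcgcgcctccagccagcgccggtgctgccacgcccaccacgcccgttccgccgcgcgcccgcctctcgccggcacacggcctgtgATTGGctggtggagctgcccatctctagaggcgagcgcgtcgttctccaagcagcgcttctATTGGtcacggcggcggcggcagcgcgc
The Cebpa window holds 1 match, TATAAA, 30 to 25 bases before the start, a motif found in 12.4% of 32851 RefSeq promoters of the same length. The Cebpb window holds TGACG at 53 to 49 and at 7 to 3 bases before the start, and on the other strand at 180 to 176 bases. TGACG occurs in 17.8% of all promoters. The Cebpg window holds CCAAT on the other strand, printed as ATTGG, at 89 to 85 and at 28 to 24 bases before the start, against 33.8% of all promoters. An eighth motif, the GC box GGGCGG, is left in lower case: it matched 5 times in the Cebpb window, with 2 of the matches overlapping, and is in 32.7% of all promoters. TTGCNNAA (9.6% of all promoters), TGACGTCA (1.5%), TTCNNNGAA (7.0%) and CACGTG (6.0%) were not found in the 3 windows, which says only that those letters are not there. GC content was 66.4% for Cebpa, 81.6% for Cebpb and 70.8% for Cebpg, against a median of 52.4% over all promoters. A match is a description of the sequence and not a measured binding site.

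A few arrays have to be named before the values. The third array at 0.5 d correlated with the 0.25 d arrays (mean Pearson r 0.9704 over genes) slightly more closely than with its own time (0.9696), whereas replicates 1 and 2 of 0.5 d were closest to the 0.75 d arrays (0.9906 and 0.9904). For each member's main probe set, the list counts and the genes named from the lists, results at 0.5 d are therefore given with and without it. One label field mentions fat, while tissue and source read liver: Alb, the albumin gene of hepatocytes, had log2 values of 14.6 to 14.8 throughout. The adipocyte gene Adipoq reached a log2 value of 5 on 4 arrays only (0 d replicate 3, 0.25 d replicate 2, 2 d replicate 3 and 7 d replicate 3, highest 7.07), and Lep on none. Of the other adipocyte markers, Fabp4 (7.08 to 10.57) and Retn (5.79 to 6.82) were at 5 or more on all 33 arrays, and Cidec on 8. No pair of arrays held identical values.

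Cebpa fell within 0.25 d of the operation, stayed low to 2 d, and overlapped the 0 d arrays from 4 d on. At 0 d the Cebpa probe set read 11.06, 11.38 and 11.0035 on the log2 scale. At 0.25 d it read 9.46, 9.92 and 9.30, and at 0.5 d 9.89, 9.95 and 8.78. None of these arrays overlapped the 0 d arrays, and the lowest Cebpa value of the series, 8.78, came from the third 0.5 d array. The values were 9.68, 10.14 and 10.20 at 0.75 d, 10.10, 9.86 and 10.03 at 1 d, 9.88, 9.84 and 9.97 at 1.5 d, and 9.68, 10.05 and 10.42 at 2 d. All of these, too, lay below every 0 d array. At 3 d the arrays came together at 10.63, 10.57 and 10.56, still below every 0 d array but above every array of 0.25 to 2 d. From 4 d on they overlapped the 0 d arrays, with 10.91, 11.16 and 11.08 at 4 d, 11.06, 10.99 and 11.02 at 7 d, and 10.69, 11.32 and 10.91 at 14 d. At each of these times at least 1 array still lay below every 0 d array.

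Against 0 d, Cebpa was lower by limma's moderated test at 6 of 10 times. The difference was -1.58 ± 0.23 (log2, SE, n = 3 arrays per time) at 0.25 d, which is 33.3% of the 0 d level (adjusted p = 4.21e-06). In whole liver, fewer cells of a type and less RNA per cell cannot be told apart. At 0.5 d it was -1.61 ± 0.23 (adjusted p = 3.71e-06), and without the third array -1.23 (adjusted p = 2.63e-05). From 0.75 to 2 d Cebpa stood between 42.0% and 46.7% of the 0 d level, with differences of -1.14 (adjusted p = 0.000522) at 0.75 d, -1.15 (0.000707) at 1 d, -1.25 (0.000325) at 1.5 d and -1.10 (0.000785) at 2 d. At 3 d the difference of -0.56 (95% interval -1.02 to -0.10) did not pass (adjusted p = 0.0776). The later differences were -0.10 at 4 d, -0.12 at 7 d and -0.17 at 14 d, with intervals that reach from -0.64 to 0.36 between them. Without the 4 arrays with Adipoq signal, the Cebpa difference was -1.84 at 0.25 d and -1.35 at 2 d, and the same 6 times passed.

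**Figure D1:**
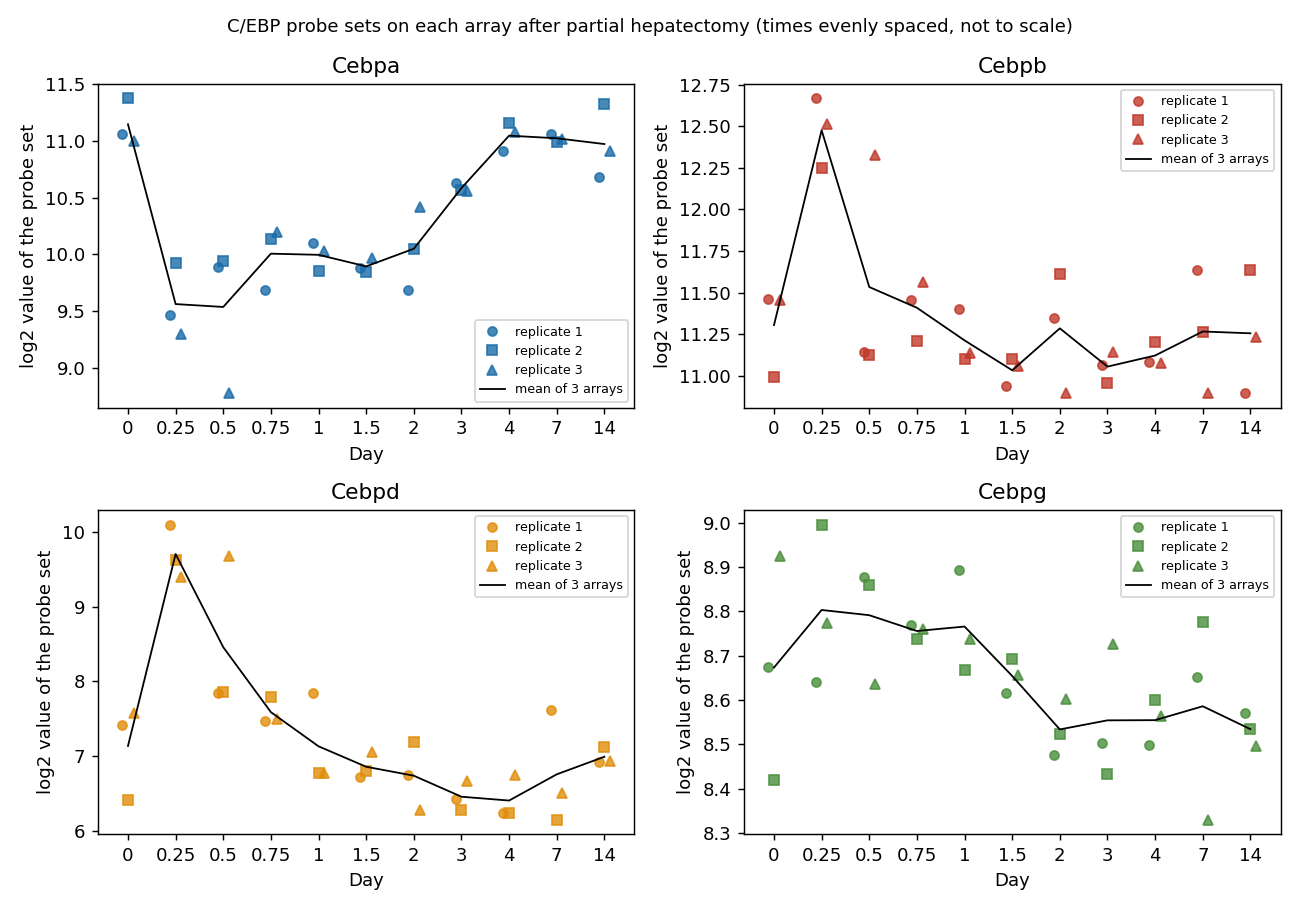
Log2 value of each member's probe set on every array (y axis, a separate scale for each gene) at each time after partial hepatectomy (x axis, times evenly spaced), with replicates as symbols and the mean of 3 arrays as a line. Cebpa drops at 0.25 d and overlaps the 0 d arrays from 4 d, Cebpb and Cebpd peak at 0.25 d, Cebpg stays between 8.33 and 8.996, and the third 0.5 d array sits among the 0.25 d arrays for Cebpb and Cebpd and below them for Cebpa.

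Cebpb rose early and briefly. Its probe set read 11.46, 10.99 and 11.46 at 0 d and 12.67, 12.25 and 12.51 at 0.25 d, with no overlap. At 0.5 d replicates 1 and 2 had returned to 11.15 and 11.13, inside the 0 d range, and the third array read 12.33. At the later times the arrays ran from 10.90 to 11.64 and overlapped the 0 d arrays at every time. The rise at 0.25 d was 1.17 ± 0.24 on the log2 scale, a 2.25-fold change (adjusted p = 0.000325), and it was the only one of the 10 times to pass. At 0.5 d the difference was 0.23 (adjusted p = 0.497), and without the third array -0.17 (adjusted p = 0.608). The step from 0.25 d to 0.5 d was -0.94 (adjusted p = 0.00641), and without the third array -1.34 (adjusted p = 3.88e-05). A second Cebpb probe set gave 1.32 ± 0.27 at 0.25 d (adjusted p = 0.000293) and passed at no other time.

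Cebpd, which was the member with the largest rise, read 7.41, 6.41 and 7.58 at 0 d and 10.09, 9.62 and 9.39 at 0.25 d. The second 0 d array was a log2 unit below the other 0 d arrays, and it was the lowest 0 d array for Cebpb and Cebpg as well and the highest for Cebpa. At 0.5 d Cebpd read 7.84, 7.85 and 9.67, so that replicates 1 and 2 were just above the 0 d arrays and the third was at the level of 0.25 d. At 0.75 d it read 7.47, 7.79 and 7.49. From 1 d on it lay between 6.15 and 7.84, and its 0 d and later arrays overlapped at every one of these times. The rise at 0.25 d was 2.57 ± 0.40, a 5.94-fold change (adjusted p = 1.26e-05). At 0.5 d it was 1.32 ± 0.40 (2.50-fold, adjusted p = 0.0109). That second call was lost without the third 0.5 d array (0.71, adjusted p = 0.152) and without the second 0 d array (0.96, adjusted p = 0.0888). The step from 0.25 d to 0.5 d was -1.25 (adjusted p = 0.0259), and without the third 0.5 d array -1.86 (adjusted p = 0.000461). At 3 d and 4 d the Cebpd means were 62.4% and 60.3% of the 0 d level, which did not pass (adjusted p = 0.24 and 0.369).

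The second Cebpd probe set had lower values, between 4.88 and 6.32 over all arrays, close to the filter. It gave smaller differences with the same direction at the early times: 0.68 ± 0.13 at 0.25 d (adjusted p = 0.000114) and 0.58 ± 0.13 at 0.5 d (adjusted p = 0.000783). This probe set was also lower at 2 d (-0.39, adjusted p = 0.0259), where the probe set used gave -0.40 ± 0.40 (adjusted p = 0.522).

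Cebpg moved least. Over the 33 arrays its values lay between 8.33 and 8.996, and its time means spanned 0.27 log2 units, against 1.61 for Cebpa, 1.44 for Cebpb and 3.30 for Cebpd. The 0 d arrays read 8.67, 8.42 and 8.92, and at every later time the arrays overlapped them. The differences from 0 d ran from -0.14 to 0.13 with an SE of 0.11, and none of the 10 passed in limma. Their lowest unadjusted p was 0.232. At 0.5 d without the third array the Cebpg difference was 0.20 (adjusted p = 0.271). Their 95% intervals together reach from -0.37 to 0.36. The probe sets of this gene disagreed. A second one rose at 6 times, from 0.25 to 2 d, by 0.31 to 0.58 (0.58 ± 0.10 at 0.5 d, adjusted p = 7.37e-05), and the remaining one, with values near the filter, passed at none. Setting the arrays to a common median brought the probe set used past the threshold at 0.25 d (0.29, adjusted p = 0.0264), and so did a further quantile normalization (0.30, adjusted p = 0.0238).

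Over the whole course, limma's moderated F-test passed for Cebpa (adjusted p = 2.89e-07), Cebpd (adjusted p = 1.72e-06) and Cebpb (adjusted p = 0.000703), and gave 0.136 for Cebpg. By this test 69.4% of the 13642 genes passed, so 3 of 4 members is near the background. By F, Cebpa ranked 1014, Cebpd 1480, Cebpb 4690 and Cebpg 11049 of the genes tested.

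The background of calls at each time belongs beside the members' calls. At 0.25 d 2 members were higher and 1 lower, where 17.2% of all genes were higher and 28.8% lower. At 0.5 d 1 member was higher and 1 lower, against 15.8% and 19.4%. Without the third 0.5 d array Cebpa alone was called at 0.5 d, against 12% and 14.8%. Cebpa alone was called, as lower, at 0.75 d (background 9.84% higher and 12.7% lower), 1 d (8.16% and 9.55%), 1.5 d (8.33% and 11.7%) and 2 d (11% and 11.6%). No member was called at 3 d (10.2% and 10.9%), 4 d (1.88% and 0.975%), 7 d (0.125% and 0.0586%) or 14 d (0.0147% and 0%). At an unadjusted p under 0.05 limma gave 1 member at 3 d (Cebpa) and 0 at 4, 7 and 14 d, and 1047 genes lower at 14 d. Counts over 4 genes are a description, and nothing is read from them beyond the members' own values. The split of calls depended on the scaling. Of the genes called at 0.25 d 37.4% were higher as deposited, 64.1% with arrays set to a common median and 52.9% after quantile normalization. The common median raised the share from 44.9% to 55.0% at 0.5 d, from 43.6% to 58.5% at 0.75 d, from 41.7% to 54.8% at 1.5 d and from 68.0% to 88.1% at 7 d. It moved all differences at 0.25 d by 0.16, and those of the other times by at most 0.07 in size. Cebpa was then -1.42 at 0.25 d, Cebpb 1.33 and Cebpd 2.73, and relative to that shift their directions did not change.

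Between neighbouring times the members moved in few steps. The first step is the 0.25 d comparison above. From 0.25 to 0.5 d 21.2% of all genes passed, and Cebpb and Cebpd did, both downwards. Without the third 0.5 d array 23.8% passed in this step, Cebpb and Cebpd among them, and 0.227% in the step to 0.75 d, with no member among them. In the later steps no member passed, where 2.29% of all genes passed at 0.75 d, 1.17% at 1 d, 2.1% at 1.5 d, 1.6% at 2 d, 0.418% at 3 d, 6.25% at 4 d, 0% at 7 d and 0% at 14 d. At an unadjusted p under 0.05 limma gave 1263 genes for the step to 7 d and 572 for that to 14 d, 2 members for the step to 0.75 d (Cebpa and Cebpd) and 1 for the step to 3 d (Cebpa). Without the third 0.5 d array the step to 0.75 d was 0.09 for Cebpa and -0.26 for Cebpd (adjusted p = 0.967 and 0.945). The return of Cebpa was spread over 0.54 ± 0.23 from 2 to 3 d (adjusted p = 0.324) and 0.46 ± 0.23 from 3 to 4 d (adjusted p = 0.252).

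**Figure D2:**
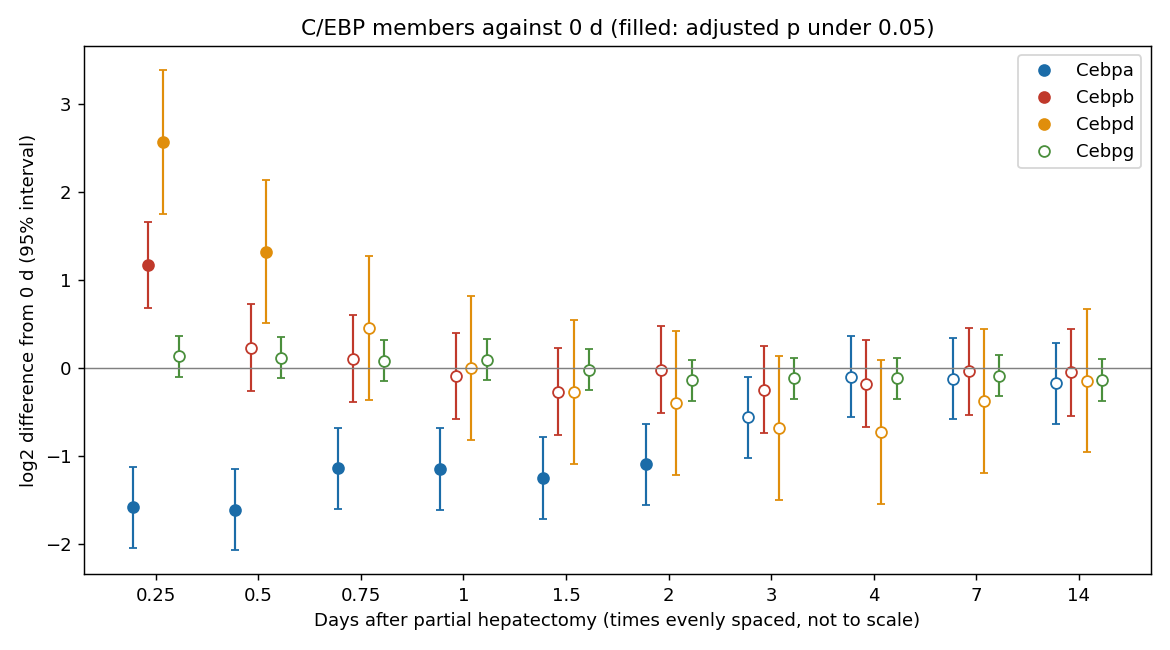
Difference of each member from the 0 d mean (y axis, log2, with 95% intervals of the limma fit) at the 10 later times (x axis, evenly spaced). Filled points have an adjusted p under 0.05: Cebpa from 0.25 to 2 d, all below 0, Cebpb at 0.25 d, and Cebpd at 0.25 and 0.5 d, above 0.

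The switch between members was followed on each array as the log2 difference of a member from Cebpa, minus the mean of that difference at 0 d. Only changes of this difference are read, since levels of different probe sets cannot be compared. For Cebpb it ran from -0.54 to 0.30 over the 0 d arrays and from 2.17 to 3.05 over the 0.25 d arrays, so that every 0.25 d array was above every 0 d array. At 0.5 d it ran from 1.03 to 3.39, the highest value being the third array. At 1 d it was 1.06 ± 0.10 (SD, n = 3) and at 1.5 d 0.98 ± 0.11. At 2 d it spread from 0.32 to 1.51, at 3 d it was 0.31 ± 0.11, and at 4 d -0.08 ± 0.09.

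For Cebpd relative to Cebpa the change was 4.16 ± 0.47 at 0.25 d (SD, n = 3), 1.59 ± 0.26 at 0.75 d and 1.15 ± 0.53 at 1 d. At 0.5 d the arrays ran from 1.92 to 4.91. It was -0.12 ± 0.21 at 3 d and -0.63 ± 0.29 at 4 d, inside the 0 d range of -0.95 to 0.59. For Cebpg relative to Cebpa it was 1.71 ± 0.21 at 0.25 d, 1.24 ± 0.06 at 1 d and 1.23 ± 0.08 at 1.5 d, and then 0.44 ± 0.18 at 3 d and -0.02 ± 0.07 at 4 d. At 1 and 1.5 d the mean shift relative to Cebpa thus lay between 0.97 and 1.24 for the 3 pairs. From 1 to 2 d the differences of Cebpb, Cebpd and Cebpg from 0 d did not pass in the probe sets used, while those of Cebpa did. This depended on the probe set: the second Cebpg probe set was higher at these times, and the second Cebpd one was lower at 2 d.

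**Figure D3:**
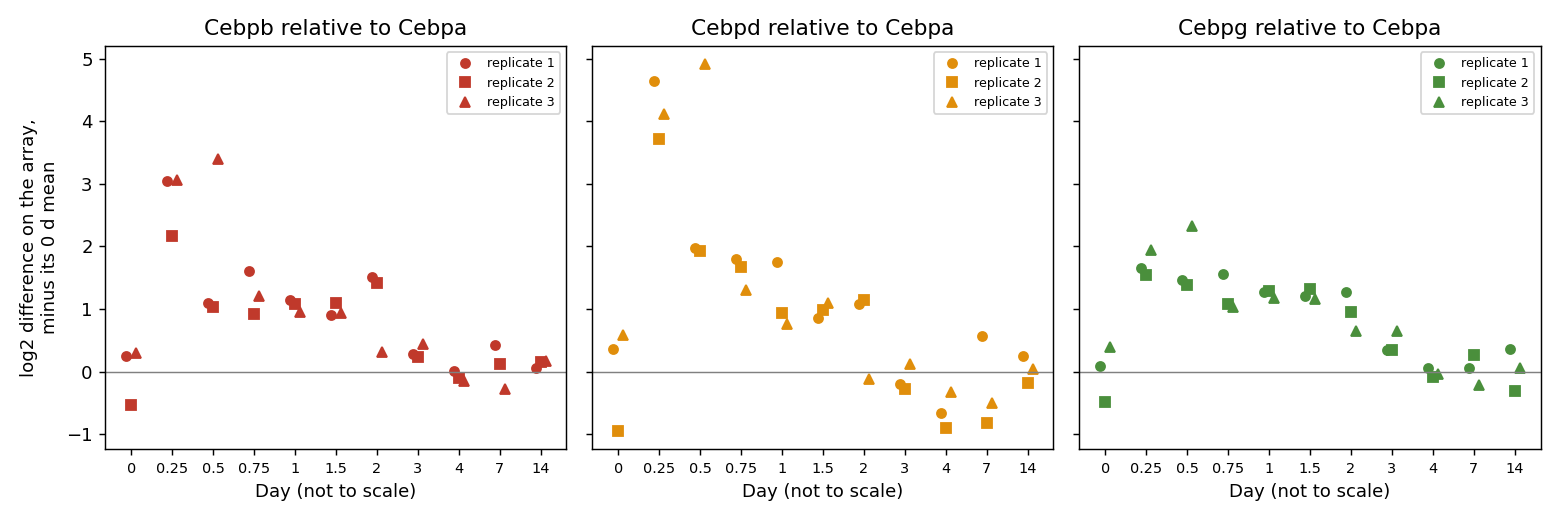
Log2 difference of Cebpb, Cebpd and Cebpg from Cebpa on each array, minus its 0 d mean (y axis), at each time (x axis, evenly spaced), with replicates as symbols. All arrays from 0.25 to 1.5 d lie above all 0 d arrays, and the 4 d arrays lie within the 0 d range.

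With 3 against 3 arrays no exact test can pass, so the shift was tested between phases that pool times: 0 d (3 arrays), above 0 to 1 d (12), above 1 to 4 d (12) and above 4 d (6). Arrays of a phase come from different times and are not replicates of 1 condition. Two-sided permutation tests were run on 15 contrasts with Benjamini-Hochberg adjustment, exact where a phase had fewer than 10 arrays. They moved single arrays freely between phases and kept no time together, so their p-values describe these arrays only. No array at 0 d or above 4 d is from the separately numbered block. Most arrays above 0 to 1 d are, and above 1 to 4 d only those of 1.5 d. Contrasts with these phases therefore also compare blocks in part, and the part of the block was not tested. At 1 d, outside that block, the mean shifts were 1.06 (Cebpb), 1.15 (Cebpd) and 1.24 (Cebpg). Relative to Cebpa, Cebpb was higher above 0 to 1 d than at 0 d by 1.72 (exact permutation adjusted p = 0.0165), than above 1 to 4 d by 1.15 (permutation adjusted p = 0.00371) and than above 4 d by 1.62 (exact permutation adjusted p = 0.00391). Cebpd was higher by 2.46 (exact permutation adjusted p = 0.0183), 2.23 (permutation adjusted p = 0.00045) and 2.57 (exact permutation adjusted p = 0.00391). Cebpg was higher by 1.48 (exact permutation adjusted p = 0.00471), 0.82 (permutation adjusted p = 0.001) and 1.44 (exact permutation adjusted p = 0.00045). All 3 pairs subtract the same Cebpa value, so their tests are not independent of each other. The Cebpg probe set used differed from 0 d by only -0.14 to 0.13, so its shift mostly restates the fall of Cebpa. The phase above 1 to 4 d did not differ from 0 d past the threshold for Cebpb (0.57, exact permutation adjusted p = 0.189), Cebpd (0.23, 0.824) or Cebpg (0.65, 0.115). Nor did the phase above 4 d, at 0.10, -0.11 and 0.04. The phase above 1 to 4 d joins unlike times. At 1.5 d the mean shifts were 0.98 (Cebpb), 0.97 (Cebpd) and 1.23 (Cebpg), and at 4 d -0.08, -0.63 and -0.02. Its result therefore does not date the end of the shift. Without any 1 of the 0 d arrays, replicate 1, 2 or 3, the Cebpb and Cebpd contrasts of above 0 to 1 d with 0 d no longer passed. Their exact permutation adjusted p ran from 0.0549 to 0.103 and from 0.0549 to 0.128. Their sizes ran from 1.45 to 1.87 and from 1.98 to 2.75.

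Cebpb and Cebpd also varied together among arrays of the same time. Over the 33 arrays, as deviations from the mean of their time, they correlated with Pearson's r = 0.79 (adjusted permutation p = 0.00672 over 6 pairs of members) and Spearman's rho = 0.74 (adjusted permutation p = 0.00624), with values permuted within times. Without the 2 arrays farthest from the median for Cebpb, both from 0.5 d, r was 0.69. The time means were not recalculated for this, so the array left at 0.5 d still carried the influence of the third one. The other 5 pairs did not pass: Cebpa gave r = -0.50 with Cebpb (adjusted permutation p = 0.267), and -0.19 without those 2 arrays. This relation was examined after the values had been seen.

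RNA of marker genes of other cell types differed from 0 d at the same times. Adipocyte markers summed, on the linear scale over the 6 measured of 8, to between 260 and 579 at 0 d and between 1660 and 2130 at 0.25 d, and 2 of 4 tested were called higher. That sum was carried by Fabp4 and Cidec, and 2520 was reached on the third 0.5 d array, where Adipoq was at 3.05. Neutrophil and monocyte markers summed to between 253 and 296 at 0 d and between 511 and 680 at 0.25 d, with 5 of 6 tested called higher, and to 915 at most at 0.5 d. Their defining genes Mpo and Itgam stayed below 5 on all arrays. Of the Kupffer cell markers 4 of 9 were lower and 1 higher at 0.5 d (3 and 1 without the third array). At 3 d 5 of 9 were higher. Of all genes 17.2% were higher at 0.25 d, and 19.4% lower and 15.8% higher at 0.5 d. Without the third array the shares at 0.5 d were 14.8% lower and 12% higher, and 10.2% were higher at 3 d. The part of these cells in the members' changes was not tested.

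The other genes of the pathway are taken from fixed lists and ordered from inputs to targets. Among 16 tested cytokine and hormone inputs to C/EBP genes, 9 were higher and 2 lower at 0.25 d, where 17.2% of all genes were higher and 28.8% lower, with a median difference of 0.44 against -0.03 over all genes. Socs3, the feedback inhibitor of cytokine signalling, was higher by 3.69 (adjusted p = 8.99e-05), Il1r1, the interleukin-1 receptor, by 3.36 (1.32e-08), Osmr, the oncostatin M receptor, by 2.17 (1.35e-05), and Stat3, the factor downstream of interleukin-6, by 1.51 (9.6e-07). At 2 d 3 were higher and 1 lower (background 11% and 11.6%). Il6 itself did not reach the filter.

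Of 14 related bZIP factors 6 were higher and 3 lower at 0.25 d (background 17.2% and 28.8%). Junb rose by 2.36 ± 0.38, Nfil3 by 2.19 ± 0.35 and Jun by 2.09 (adjusted p = 2.11e-05, 2.27e-05 and 0.00036). Dbp and Tef, circadian members of the PAR bZIP group, were at -3.62 (adjusted p = 0.00131) and -1.38 (adjusted p = 0.0117). The Dbp arrays ran from 8.36 to 11.65 at 0 d and from 8.33 to 11.36 at 14 d. The part of time of day in these changes was not tested. Ddit3, which encodes the C/EBP relative CHOP, was higher by 0.64 at 0.25 d and by 1.41 at 0.5 d (adjusted p = 0.0209 and 1.96e-05), and Atf4, the partner of C/EBPγ, by 0.62 at 0.5 d (adjusted p = 0.00121). Without the third array these differences at 0.5 d were 1.24 and 0.47 (adjusted p = 0.000376 and 0.0176). Among 13 tested genes of the ATF4 and C/EBPγ stress response 1 was higher and 2 lower at 0.25 d, below the background of 17.2% and 28.8%, and 3 higher and 2 lower at 0.5 d, near the background of 15.8% and 19.4%. Without the third array 1 was higher and 3 lower at 0.5 d. Asns, which encodes asparagine synthetase, was then higher by 1.72 (adjusted p = 0.00948), and by 1.51 with that array (adjusted p = 0.00807). Its arrays overlapped, at 6.04 to 8.45 at 0 d and 7.96 to 8.83 at 0.5 d. The 3 lower genes without that array were Cth (-1.07, adjusted p = 0.000662), Eif4ebp1 (-0.58, 0.00114) and Vldlr (-0.57, 0.0488).

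Of 10 genes acting on C/EBP protein or its translation, 3 were higher and 2 lower at 0.25 d, near the background of 17.2% higher and 28.8% lower. Trib2 and Trib1, pseudokinases that direct C/EBPα to degradation, were higher by 1.24 (adjusted p = 1.6e-06) and 0.66 (0.00893). Cop1, the ubiquitin ligase they work with, was at -0.34 (0.00153). Eif4e was higher by 0.57 at 0.25 d and by 0.58 at 3 d (adjusted p = 0.000166 and 0.000444). The arrays measure RNA, so C/EBP protein was not measured.

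Acute-phase genes reported to carry C/EBP sites were higher as a group: 13 of 15 at 0.25 d, 14 at 1 d, 12 at 3 d, 7 at 4 d, 3 at 7 d and 0 at 14 d, with none lower. The share of all genes that were higher was 17.2% at 0.25 d, 8.16% at 1 d, 10.2% at 3 d, 1.88% at 4 d and 0.125% at 7 d. At 0.5 d 13 were higher, and 15 without the third array (background 15.8% and 12%). Their median difference was 0.81 at 0.25 d and 0.99 at 1 d. Some of these genes, such as Hp and Saa1 with means of 14.61 and 14.5 at 1 d, lay near the highest value of any probe set (14.89). Their differences may therefore be understated. Lcn2, which encodes lipocalin 2, read 4.64 to 6.27 at 0 d and 13.18 to 13.56 at 0.25 d, a fitted difference of 7.78 (adjusted p = 1.87e-07). Its 0 d values lay around the array medians of 5.32 to 5.38 and partly below the filter of 5, so the size of that difference is not exact. Saa2 was higher by 5.39 (1.36e-05) at 0.25 d. Saa1 and Saa2 are near-identical copies whose probes may not separate them. Crp (0.01) and Cp (0.15) did not pass at 0.25 d. Between 1 and 3 d 12 to 14 of these genes were higher. At these times the differences of the Cebpb and Cebpd probe sets used from 0 d did not pass.

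Hepatocyte genes reported to carry C/EBP sites gave 7 lower and 1 higher of 17 at 0.25 d, where 28.8% of all genes were lower and 17.2% higher. At 0.5 d 8 were lower, and 7 without the third array (background 19.4% and 14.8%). At 2 d 5 were lower (background 11.6%), at 3 d 7 (10.9%), and from 4 d none. These counts were not tested against the background, whose split between higher and lower turned with the scaling at 0.25 d. The urea cycle gene Otc was at -0.71 (adjusted p = 2.31e-06) at 0.25 d and -1.11 (3.29e-09) at 0.5 d, and the glucuronosyltransferase Ugt2b1 at -0.97 and -2.44 (0.000374 and 1.45e-09). Without the third 0.5 d array, Otc was at -1.07 (adjusted p = 7.76e-08) and Ugt2b1 at -2.36 (adjusted p = 3.79e-08) at 0.5 d. In that fit Gys2 was at -1.5 (adjusted p = 0.0032) and Adh1 at -0.83 (adjusted p = 2.34e-05). Alb lay near the highest value of any probe set (14.89), where a change may not be measurable, and its differences of -0.02 and -0.03 are not read. The list's median was -0.21 at 0.25 d and -0.27 at 0.5 d, and at 0.5 d -0.43 without the third array.

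Of 15 partners of C/EBPα in growth control, 8 were lower and 1 higher at 0.25 d (background 28.8% and 17.2%), and 8 higher and 1 lower at 2 d (background 11% and 11.6%). Cdkn1a (p21), a cell-cycle inhibitor, was higher by 4.25 at 0.25 d (adjusted p = 9.13e-08) and by 1.86 at 2 d (0.00393). At 2 d Rbl1 (p107) was higher by 2.65 (6.75e-07), Ccnd1 (cyclin D1) by 2.37 (0.000262) and E2f1 by 1.03 (5.49e-06). The gene lower at 2 d was Rbl2, at -0.79 (0.00257), and at 0.25 d it was at -1.08 (4.31e-05). Smarca2, a chromatin remodeller, was at -1.14 at 0.25 d (0.000387), and at -0.55 at 2 d, which did not pass (0.0989). Of 7 tested proliferation markers, 3 were lower at 0.25 d (background 28.8%) and 7 higher at 1.5, 2 and 3 d (background 8.33%, 11% and 10.2%). At these last 3 times Cebpa stood at 42.0%, 46.7% and 67.7% of its 0 d level, the last not passing (limma adjusted p = 0.0776). At 0.25, 0.5 and 0.75 d Cebpa stood at 33.3%, 32.8% and 45.4%. There 3, 4 and 3 markers were lower (background 28.8%, 19.4% and 12.7%) and 0 higher. Without the third 0.5 d array 4 were lower at 0.5 d (background 14.8%). At 1 d 1 was higher (background 8.16%), with Cebpa at 45.0%. At 4 d 3 were higher (background 1.88%), with Cebpa at 93.3%. A link was not tested.

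**Figure D4:**
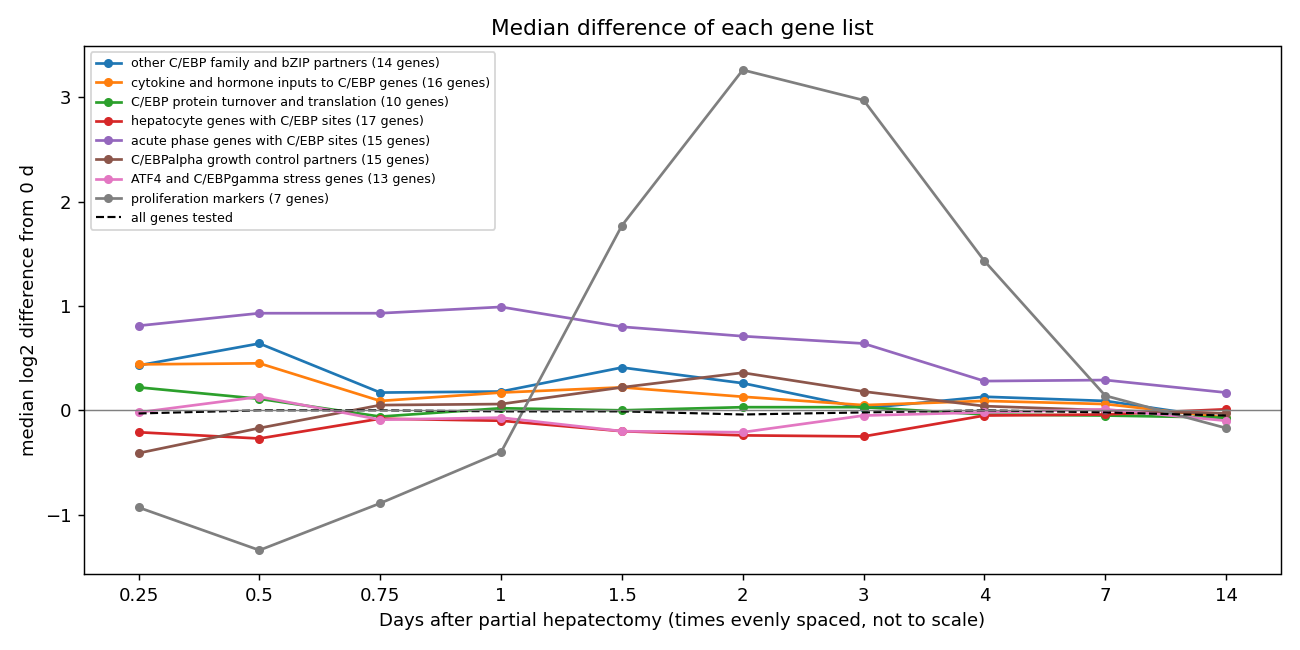
Median log2 difference from 0 d (y axis) of the tested genes of each list at the 10 later times (x axis, evenly spaced), with all 13642 genes as a dashed line. The acute-phase list lies highest to 1 d, at 0.81 to 0.99, the proliferation markers reach 3.26 at 2 d, and the other lists stay within 0.7 of 0.

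The genes whose 11 time means followed each member most closely are named as a description, over n = 11 time means that all rest on the same arrays. For Cebpa they were Prnp (r = 0.986), Plekhg6 (0.983), Foxo3 (0.981), Btbd2 (0.98) and Foxn3 (0.979). Prnp had its lowest mean at 0.5 d and Foxo3 at 0.25 d, 8.57 and 7.04, against 9.92 and 8.78 at 0 d. For Cebpb they were Arl15 (0.972), Retreg1 (0.971), Spsb1 (0.97), Tmem87b (0.967) and Cyp1b1 (0.967), all highest at 0.25 d. For Cebpd they were Wdr43 (0.992), Lmo4 (0.984), Arrdc4, Nfkbib and Slc22a5 (0.983 each), again highest at 0.25 d. For Cebpg they were Atg16l1 (0.966), Mterf3 (0.95), Aldoa (0.941), Rabgef1 (0.937) and Etv2 (0.937), although Cebpg itself did not pass the F-test and Cyp1b1 and Etv2 lay near a log2 value of 5. Among the members, the time means of Cebpb and Cebpd correlated with r = 0.938 and those of Cebpa and Cebpd with r = -0.659.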

How the data were processed

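Total RNA from mouse liver was labelled with biotin and hybridized to Affymetrix arrays, per the labels' protocols. The authors summarized the probes with RMA (its version is not stated), per the submitters' processing notes, which yields the log2 values that were deposited. RMA makes the arrays' distributions alike and compresses differences near the floor. Array medians lay between 5.32 and 5.38. The number of arrays limits the precision.

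Of 45101 probe sets, 34945 had 1 symbol, 932 several, 9160 none and 64 were controls. Of the first, 34741 matched RefSeq by Entrez ID and no symbol changed. Genes that reached 5 (log2) in no fewer than 3 arrays, 13642 in all, were fitted with limma 3.58.1 in R 4.3.3, with a mean per time over all 33 arrays (22 residual degrees of freedom), and p-values were Benjamini-Hochberg adjusted within each comparison at 0.05. The fit was tested on simulated data. Permutations used scipy 1.17.1 or numpy, with 100000 resamples where not exact. Alternatives changed the filter, probe set, normalization, prior, array weights, samples, adjustment and replicate block, and left out each array. The 4 arrays with Adipoq signal were left out together, and list counts, single genes and steps were refitted without the third 0.5 d array, as choices made after seeing the data.

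Named genes were all 4 members, up to 4 passing genes with the largest difference per list at a described time, any related bZIP factor, and the 5 genes closest to each member. Genes named as not passing, as filtered or as near-identical copies, and marker genes, were chosen after their values were seen. The members and lists were chosen with earlier results of these data known. Cebpe was not analysed here. Replicate numbers did not pair samples: same-numbered arrays' deviations correlated with a median of 0.018 over 165 pairs of times (-0.353 to 0.389).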

Additional observations from a re-analysis of the deposited data

How the results depend on the processing

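Of the 156 alternative values for differences that passed, 152 stayed on their side and 4 did not, all Cebpd at 0.5 d: with array weights (0.82), with only the 6 arrays compared (1.32, adjusted p = 0.14), without 0.5 d replicate 3 (0.71) and without 0 d replicate 2 (0.96). No difference that passed changed direction. Cebpa at 3 d passed with array weights (adjusted p = 0.0292) and with only the 6 arrays compared (0.0119). Over leaving out 1 array Cebpa was called at 6 to 7 times. Cebpd was called at 1 time rather than 2 with array weights and with only the 6 arrays compared, and at 1 to 2 times over leaving out 1 array. Cebpg was called at 1 time after quantile normalization, at 1 with a common median and at 6 with its second probe set. The F-test of Cebpg passed with the mean of its probe sets (adjusted p = 0.0221), quantile normalization (0.0132), a common median (0.00713), array weights (0.0262), its second probe set (9.15e-05) and without the 4 arrays with Adipoq signal (0.0347). The cause was not tested.

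Differences of Cebpa, Cebpb, Cebpd and Cebpg that did not pass changed sign as follows. Cebpb gave -0.10 at 0.5 d with array weights, 0.02 at 2 d after quantile normalization, 0.01 at 2 d and 0.01 at 7 d with its second probe set, and 0.00 at 7 d and 0.02 at 14 d with a common median. Cebpd gave 0.02 at 1 d after quantile normalization and 0.02 with a common median. Cebpg gave 0.07 at 1.5 d with the mean of its probe sets, 0.05 after quantile normalization and 0.03 with a common median. With its second probe set it gave 0.45 at 1.5 d, 0.31 at 2 d, 0.23 at 3 d, 0.11 at 4 d and 0.11 at 7 d, of which the first and second of these passed, and with its remaining one -0.13 at 0.5 d, -0.08 at 0.75 d and -0.03 at 1 d. Without the 4 arrays with Adipoq signal, Cebpb gave 0.25, 0.22 and 0.03 at 2, 7 and 14 d, Cebpd 0.22, 0.05 and 0.08 at 1, 2 and 14 d, and Cebpg 0.11, 0.01, 0.01 and 0.17 at 1.5, 3, 4 and 7 d.

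Leaving out 1 array at a time gave ranges across 0 for Cebpa at 4 d (-0.17 to 0.01), for Cebpb at 0.5 d (-0.17 to 0.43), 0.75 d (-0.05 to 0.21), 2 d (-0.18 to 0.18), 7 d (-0.22 to 0.15) and 14 d (-0.24 to 0.13), for Cebpd at 1 d (-0.37 to 0.22) and 14 d (-0.51 to 0.08), and for Cebpg at 0.5 d (-0.01 to 0.24), 0.75 d (-0.04 to 0.21), 1 d (-0.03 to 0.22), 1.5 d (-0.15 to 0.11), 3 d (-0.25 to 0.01), 4 d (-0.25 to 0.01) and 7 d (-0.21 to 0.04).

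Without the 4 arrays with Adipoq signal, the shift relative to Cebpa from 0 d to the phase above 0 to 1 d was 1.83 for Cebpb and 2.64 for Cebpd and no longer passed (adjusted p = 0.0855 each), with 2 arrays left at 0 d, and Cebpd above 4 d was 0.26. Leaving out 1 array gave 1.45 to 1.87 for Cebpb and 1.98 to 2.75 for Cebpd in that phase, -0.24 to 0.53 for Cebpd above 1 to 4 d, and, above 4 d, -0.16 to 0.25 for Cebpb, -0.59 to 0.18 for Cebpd and -0.21 to 0.23 for Cebpg.

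Counts of called genes moved by over 1.5 times as follows. With only the 6 arrays compared they were 3702 at 0.25 d, 2443 at 0.5 d, 1663 at 2 d, 160 at 4 d, 0 at 7 d and 0 at 14 d. Adjusted jointly over the 10 comparisons they were 954 at 4 d, 567 at 7 d and 537 at 14 d. At 7 d they were 15 after quantile normalization, 59 with a common median and 12 with array weights. At 14 d they were 0 with no filter, 0 with a filter at 7, 4 after quantile normalization, 7 with a common median, 12 with array weights and 0 without the 4 arrays. Leaving out 1 array gave 1581 to 2278 at 1 d, 1893 to 2658 at 3 d, 87 to 361 at 4 d, 0 to 48 at 7 d and 0 to 23 at 14 d.

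With the replicate number as a replicate block no member's call changed: the adjusted p of the F-test was 4.31e-07 for Cebpa, 0.00137 for Cebpb, 3.13e-06 for Cebpd and 0.177 for Cebpg. The 3 arrays per time limit what can be shown, and the intervals of differences that did not pass are wide for Cebpd (an SE of 0.40).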
